A study of Mus musculus with 4 samples.

Results

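Hdac6 and 8 genes whose proteins it deacetylates, binds or shares a substrate with were examined in GC-1 cells, a mouse spermatogonial line. The 9 genes, chosen by name, are Hdac6, Atat1, Sirt2, Cttn, Hsp90aa1, Prdx1, Vcp, Plaa and Sqstm1. They have 27 probes on the array, of 56605 probes for 37074 gene names. Both groups of cells were transfected with a pCMV plasmid. In the Hdac6 vector group the plasmid carried the murine Hdac6 gene, driven by the viral CMV promoter and joined to a myc/DDK tag, and in the control group it was the empty vector. Cells were harvested 48 h after transfection. Each group has 2 one-colour Agilent arrays, numbered 1 and 2, and both groups had the same medium and transfection. The labels do not state whether arrays of a group came from separate cultures, so p-values cover the spread between these samples alone, which may be technical.

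HDAC6 is a mostly cytoplasmic deacetylase that removes acetyl groups from α-tubulin in microtubules, from the actin-binding protein cortactin, from the chaperone HSP90 and from peroxiredoxins. It also binds ubiquitin through a zinc finger and links ubiquitinated protein aggregates to dynein, which carries them to the aggresome. The segregase VCP and its cofactor PLAA act on ubiquitinated proteins and bind HDAC6, and SQSTM1 (p62) hands ubiquitinated cargo to autophagy. These activities act on proteins, and the arrays measured RNA.

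On each array 61.0% to 66.4% of the spots were well above background, by the flag of the extraction software, and no spot was saturated. Hdac6 vector 2 had the lowest share. Its 75th percentile of processed signal was 453, against 666 to 815 on the other arrays. The pair with the fewest differences was empty vector 2 with Hdac6 vector 1, with 1.22% of tested probes at least 2-fold apart, against 5.34% to 7.67% for the other pairs. Levels are log2 processed signal relative to the 75th percentile of that array, so 0 is the 75th percentile. The lowest level well above background was -5.33 on Hdac6 vector 2, against -6.38 to -5.82 on the other arrays. A level compares arrays for 1 probe and not 1 probe with another. Of 20 germ cell markers, 11 had a probe well above background on all 4 arrays. Dazl, Kit, Mael, Ret and Tdrd1 had none on any array, Nanos2 and Stra8 had one on 1 array each, Ddx4 on 2 and Gfra1 on 3. Marker genes of other testis cells were also detected on all 4 arrays, namely 8 of 12 for Sertoli cells, 2 of 8 for Leydig cells, 10 of 11 for myoid cells or fibroblasts and 8 of 10 for leukocytes. In bulk RNA, fewer cells with a transcript and less of it per cell cannot be told apart, and the sources used here do not give the share of transfected cells.

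What each probe can read bears on the values, so the sequences of 9 probes are shown, read 5′ to 3′. The motif AATAAA, the common polyadenylation signal, was present in 4 of the 27 probes on the probe strand, against 9.77% of all 56605 probes. Its reverse complement TTTATT, which cannot overlap it in the same 6 bases, was present in 2 of the 27 and in 3.85% of all probes. For the 4 probes with AATAAA the 30 bases around it are shown, with the motif in capitals. A match is a description of the letters and not a mapped cleavage site. Copying of the RNA began at an oligo-dT primer, which binds the poly(A) tail.
Hdac6 A_55_P1992655: gtcagcatatttAATAAAgttggagttgct
Atat1 A_52_P176619: tttaaccagagcAATAAAagtatttatttg
Plaa A_66_P118934: agaaacaaattataAATAAAgtttttgcac
Sqstm1 A_51_P119077: tggtttgtaagtaacctgtAATAAAatgcc

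Another 7 of the 27 probes spanned an intron, with genome spans longer than the 60 bases of the probe, so they read spliced RNA. Shown are 5 of these, 1 each for Atat1, Sirt2, Hsp90aa1, Plaa and Prdx1, to set spliced RNA beside the other probes of these genes.
Atat1 A_66_P123649: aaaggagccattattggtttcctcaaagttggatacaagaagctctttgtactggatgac
Sirt2 A_52_P656024: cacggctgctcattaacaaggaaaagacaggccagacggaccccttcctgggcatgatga
Hsp90aa1 A_55_P2796341: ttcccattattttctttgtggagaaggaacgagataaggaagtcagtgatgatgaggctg
Plaa A_55_P2632492: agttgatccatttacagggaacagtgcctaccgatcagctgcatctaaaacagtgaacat
Prdx1 A_51_P353183: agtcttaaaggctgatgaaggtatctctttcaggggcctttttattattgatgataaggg

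None of the 9 genes passed the test for a change between the Hdac6 vector and the empty vector. Of their 27 probes, 25 were well above background on all 4 arrays, 1 on 3 arrays and 1 on none, and 26 were tested. By limma, with p-values adjusted by Benjamini-Hochberg over the 35206 probes tested, 0 of the 26 passed an adjusted p of 0.05, and 0 had an unadjusted p under 0.05. Over all tested probes 0.0114% passed the first threshold (4 probes), 0.00851% of gene names passed it by their brightest probe (2 of 23492), and 1.83% of probes passed the second. The lowest unadjusted p of a member probe was 0.217 by limma, and the adjusted p was 1.00 for all 26. Fold changes ran from 0.769-fold to 1.33-fold. The lowest end of a 95% interval was 0.471-fold and the highest 2.21-fold, both for Vcp probes. For each probe, the 2 arrays a group do not exclude a change within its own interval. The intervals are not adjusted for the number of probes tested, so they are not limits of detection.

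The member probes had no common direction. Of the 26, 12 were higher and 14 lower with the Hdac6 vector, where 53.2% of all tested probes were higher. In 23 of the 26, the gap between the arrays of at least 1 group was larger than the difference between the groups. In 4 of 26 (15.4%) the groups did not overlap, against 25% of all tested probes. Of the 8 genes with more than 1 tested probe, 0 had all their probes on the same side of 0. By the brightest probe of each gene, 1 gene (Vcp) was higher and 8 were lower, where 50.7% of all genes were higher. The median log2 difference was -0.06, where the median over all genes was 0.004. The split of the genes moved with the processing: 3 of the 9 were higher by the mean over all tested probes of a gene. By the brightest probe, 2 were higher with quantile normalization, where 47.7% of all genes were. That split by the brightest probe also moved with single arrays. Without empty vector 1 or 2, 3 or 4 of the 9 genes were higher, without Hdac6 vector 1, 6 were, and without Hdac6 vector 2, 1 was. Of all genes, 51.0%, 48.6%, 61.1% and 40.4% were higher in these runs, in that order. Scaling arrays to their median in place of the 75th percentile moved all probes alike, from a median log2 difference of 0.02 to -0.07 over all tested probes. It left 7 of 26 member probes higher. By the brightest probe of each gene, 1 of the 9 member genes was then higher, against 36.4% of all genes.

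**Figure D1:**
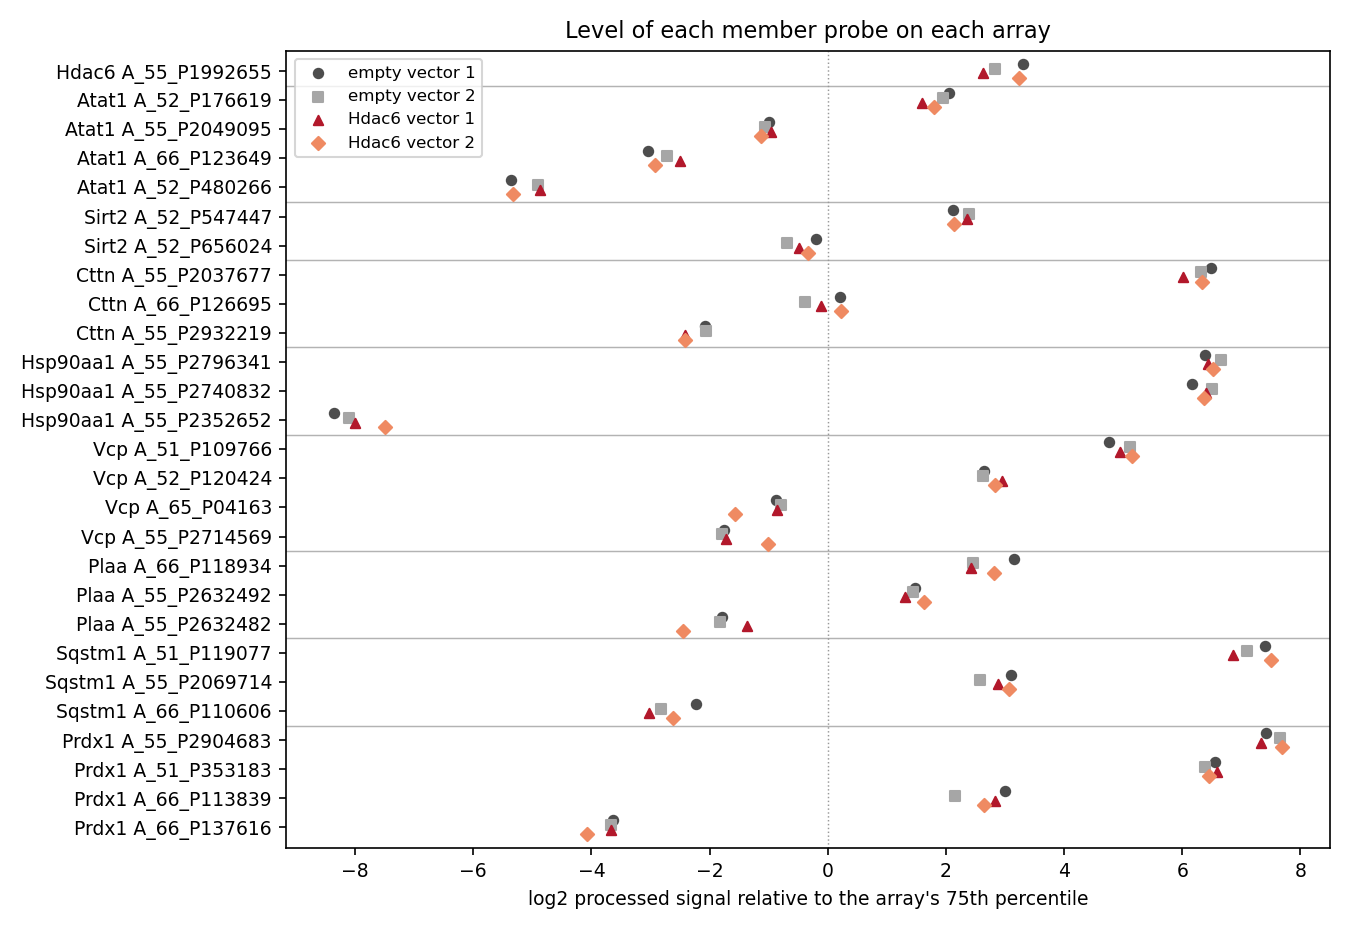
Level of the 27 member probes on each of the 4 arrays, as log2 processed signal relative to that array's 75th percentile (x axis, dotted line at 0), grouped by gene (y axis). Symbols are single arrays. The Hdac6 probe is high on empty vector 1 and Hdac6 vector 2 and low on the other arrays, and the lowest probe, of Hsp90aa1, is not well above background on any array.

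Hdac6 has 1 probe, at chrX:7507249-7507308 on the minus strand (mm9), from base 4081 of its RefSeq transcript. It stood at 3.31 and 2.83 with the empty vector and at 2.62 and 3.24 with the Hdac6 vector. The highest and the lowest of the 4 arrays were thus 1 of each group, and the groups overlapped. By group means (n = 2 each) the Hdac6 vector stood at 0.909-fold, with a 95% interval of 0.578 to 1.43 (limma adjusted p = 1.00). Leaving out 1 array moved the log2 difference between -0.45 and 0.17. It was 0.10 without empty vector 1 and 0.17 without Hdac6 vector 1. The probe has its AATAAA at base 34, and the labels do not describe the 3′ end of the inserted gene, so these values cannot check the labels: whether vector-derived RNA could bind the probe was not tested.

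The Hdac6 pattern was not particular to that gene. Among 15373 genes detected on all 4 arrays, the nearest patterns were those of Aifm1, a mitochondrial flavoprotein, of Ncoa5, a nuclear receptor coactivator, and of Gipc2, a PDZ domain protein. Their distances to the Hdac6 probe, taken over the 4 arrays after each gene's mean was subtracted, were 0.026, 0.034 and 0.037 on the log2 scale. Within a distance of 0.2 there were 822 genes. Over 4 arrays such a likeness is a description of shared high and low arrays.

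Atat1 and Sirt2 encode enzymes that act on the same α-tubulin lysine as HDAC6. ATAT1 is the acetyltransferase that places the mark, and SIRT2 is a NAD-dependent deacetylase that removes it. The Atat1 probe with AATAAA at base 36 (chr17:36034558-36034617, minus strand) stood at 2.06 and 1.95 with the empty vector and at 1.60 and 1.79 with the Hdac6 vector. Both Hdac6 vector arrays were lower, without overlap. Its 0.807-fold difference (95% interval 0.56 to 1.16, limma adjusted p = 1.00) had the lowest unadjusted p of the member probes.

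The other 3 Atat1 probes did not share that pattern. The probe at chr17:36045509-36045568 stood at -0.998 and -1.06 against -0.97 and -1.13, a 0.986-fold difference (0.647 to 1.5). The junction probe at chr17:36045906-36046086, in the sequence list as A_66_P123649, stood at -3.05 and -2.72 against -2.50 and -2.92, with 1.13-fold (0.677 to 1.88). The dimmest Atat1 probe (chr17:36037229-36037288) stood at -5.36 and -4.90 against -4.88 and -5.33, and it was not well above background on Hdac6 vector 2.

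Sirt2 gave nearly the same group means by both probes. The brighter one (chr7:29573375-29573434, plus strand) stood at 2.13 and 2.39 with the empty vector and at 2.35 and 2.13 with the Hdac6 vector, 0.987-fold (95% interval 0.678 to 1.44, limma adjusted p = 1.00). The junction probe (chr7:29571001-29572626) stood at -0.20 and -0.68 against -0.49 and -0.33, 1.02-fold (0.657 to 1.58). In both, the Hdac6 vector arrays lay within the range of the empty vector arrays or at its edge.

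Cttn, Hsp90aa1 and Prdx1 encode deacetylation substrates of HDAC6. Cortactin, the Cttn product, binds Arp2/3 and stabilises branched actin. Its brightest probe (chr7:151621678-151621737, minus strand) stood at 6.49 and 6.31 with the empty vector and at 6.01 and 6.34 with the Hdac6 vector. Hdac6 vector 1 was the lowest array and Hdac6 vector 2 lay within the empty vector range, 0.854-fold by group means (95% interval 0.575 to 1.27, limma adjusted p = 1.00).

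A dimmer Cttn probe, whose span of chr7:151649891-151651905 holds an intron, had the tightest replicates of the member probes. It stood at -2.07 and -2.05 with the empty vector and at -2.42 and -2.41 with the Hdac6 vector. The groups did not overlap, and the 0.784-fold difference (0.498 to 1.23) still did not pass the test (limma adjusted p = 1.00). That interval rests on the spread shared with probes of like signal, beside the probe's own SD of 0.01 in each group. The Cttn probe between them in level (chr7:151622939-151622998) stood at 0.21 and -0.38 against -0.12 and 0.23, 1.11-fold (0.697 to 1.75), with overlap.

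Hsp90aa1 encodes the inducible cytosolic HSP90 isoform. Its junction probe (chr12:111932511-111932796, minus strand) stood at 6.38 and 6.66 with the empty vector and at 6.43 and 6.52 with the Hdac6 vector, 0.972-fold (95% interval 0.659 to 1.43, limma adjusted p = 1.00). A probe in the same transcript (chr12:111933318-111933377) stood at 6.16 and 6.50 against 6.40 and 6.38, 1.04-fold (0.704 to 1.54). For both, the Hdac6 vector arrays lay inside the empty vector range. The Hsp90aa1 probe at chr12:111929938-111929997, named on a cDNA clone and not on a RefSeq transcript, was not well above background on any array and was not tested.

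Prdx1 encodes a cytosolic peroxiredoxin, a thiol enzyme that reduces peroxides. Its brightest probe (chr4:116372029-116372088, plus strand) stood at 7.41 and 7.66 with the empty vector and at 7.34 and 7.69 with the Hdac6 vector, 0.987-fold (95% interval 0.649 to 1.5, limma adjusted p = 1.00). The junction probe (chr4:116365578-116366348) stood at 6.55 and 6.38 against 6.59 and 6.45, 1.04-fold (0.708 to 1.52). Both overlapped, and their signs were opposite.

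The other Prdx1 probes lie at the start of the gene. The probe with a span of chr4:116358214-116360019, from base 10 of the transcript, stood at 3.003 and 2.15 against 2.83 and 2.65, with the arrays of the empty vector as the extremes. Its difference was 1.12-fold (0.696 to 1.8). The probe at chr4:116358559-116358618, within that span, stood at -3.64 and -3.67 against -3.67 and -4.07, 0.863-fold (0.513 to 1.45), with Hdac6 vector 2 low and the other 3 arrays alike.

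Vcp, Plaa and Sqstm1 encode the partners in ubiquitin handling. VCP is the AAA ATPase that pulls ubiquitinated proteins out of complexes. Its brightest probe (chr4:42993012-42993071, minus strand) stood at 4.76 and 5.12 with the empty vector and at 4.94 and 5.15 with the Hdac6 vector, 1.08-fold with overlap (95% interval 0.73 to 1.59, limma adjusted p = 1.00). A second Vcp probe on the RefSeq transcript stood at 2.65 and 2.62 against 2.95 and 2.82. Both Hdac6 vector arrays were higher, at 1.19-fold (0.836 to 1.69), and the difference did not pass the test (limma adjusted p = 1.00).

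The remaining Vcp probes are named on Ensembl transcripts only and stood apart on 1 array. The probe at chr4:43001613-43001672 stood at -1.76 and -1.80 against -1.73 and -1.01, 1.33-fold (0.8 to 2.21), without overlap. The probe at chr4:43005631-43005690 stood at -0.87 and -0.79 against -0.86 and -1.56, 0.769-fold (0.471 to 1.26). These were the highest and the lowest fitted differences of the 26 tested member probes, with opposite signs within 1 gene, and in both Hdac6 vector 2 stood apart from the other 3 arrays. Without Hdac6 vector 2 the log2 differences were 0.05 and -0.03.

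PLAA binds ubiquitin and VCP. Its probe with AATAAA at base 45 (chr4:94235862-94235921, minus strand) stood at 3.15 and 2.46 with the empty vector and at 2.43 and 2.81 with the Hdac6 vector, 0.881-fold (95% interval 0.56 to 1.39, limma adjusted p = 1.00). The junction probe (chr4:94240732-94241873) stood at 1.48 and 1.45 against 1.31 and 1.62, 1.01-fold (0.69 to 1.47). The third probe (chr4:94252511-94252570) stood at -1.79 and -1.82 against -1.37 and -2.44. It had the widest gap between replicates of the member probes, with the Hdac6 vector arrays on either side of the empty vector arrays.

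Sqstm1 encodes p62, the autophagy receptor. Its probe with AATAAA at base 50 (chr11:50013670-50013729, minus strand) stood at 7.40 and 7.09 with the empty vector and at 6.87 and 7.51 with the Hdac6 vector, 0.959-fold (95% interval 0.603 to 1.53, limma adjusted p = 1.00). The empty vector arrays lay between the Hdac6 vector arrays. The probe at chr11:50015985-50016044 stood at 3.11 and 2.57 against 2.87 and 3.07, 1.1-fold (0.729 to 1.65). The probe at chr11:50012868-50012927 stood at -2.22 and -2.82 against -3.03 and -2.63, 0.807-fold (0.471 to 1.38). Both overlapped.

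**Figure D2:**
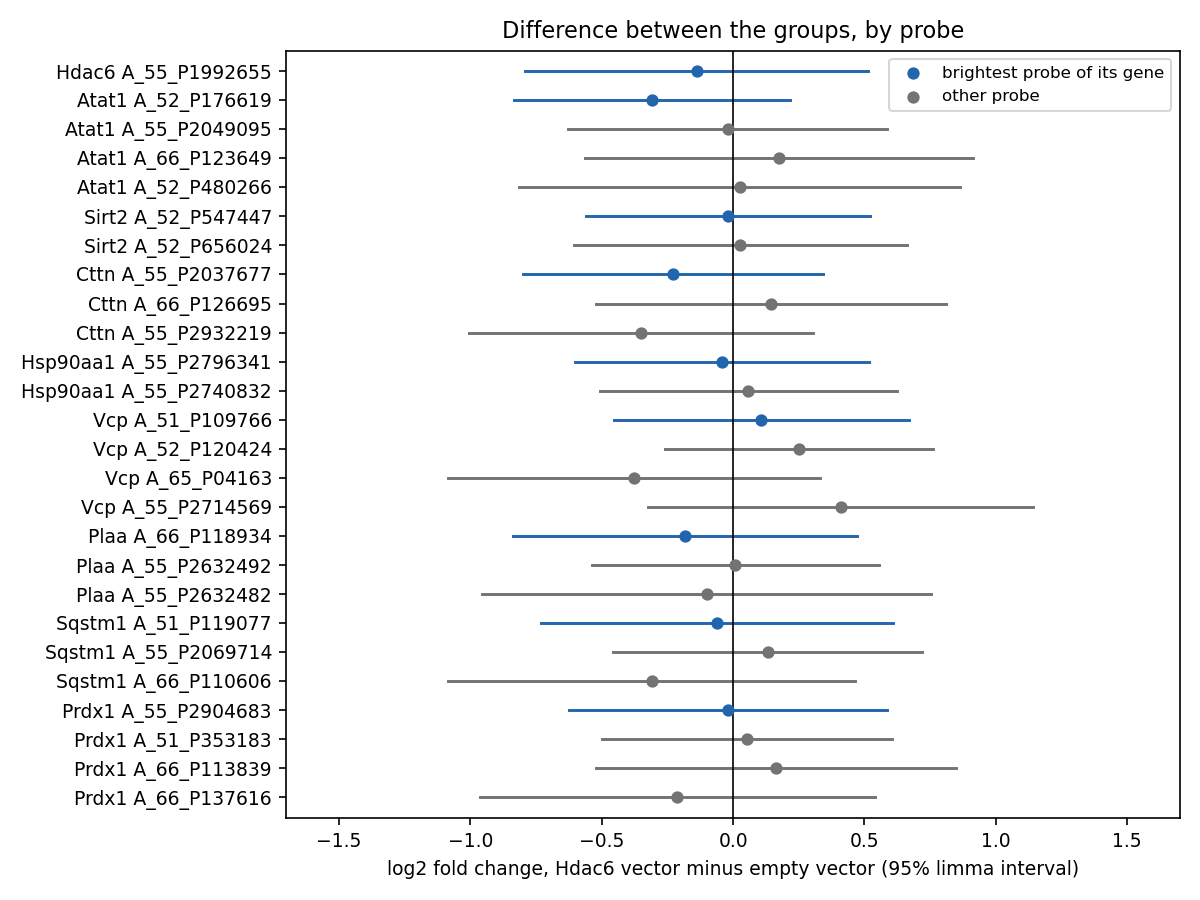
Log2 difference of the 26 tested member probes, Hdac6 vector minus empty vector (x axis), with points for the limma estimate and bars for its 95% interval, by gene (y axis). Every interval includes 0, and the estimates run from -0.38 to 0.41.

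The probes with AATAAA fell into 2 patterns across arrays. For Hdac6, Plaa and Sqstm1, the probe with AATAAA was higher on empty vector 1 and Hdac6 vector 2 than on empty vector 2 and Hdac6 vector 1. For Atat1 it was lower on both Hdac6 vector arrays. Neither pattern was particular to the motif. Among probes without AATAAA, the first was shared by the other Sqstm1 probes, the Plaa and Sirt2 junction probes and the brighter Cttn probes. The second was shared by the dimmest Cttn probe. Over all 26 tested member probes, the median absolute log2 difference between the arrays of a group was 0.27 for the empty vector and 0.32 for the Hdac6 vector (0.29 and 0.33 over all tested probes). Between empty vector 1 and Hdac6 vector 2 it was 0.16 (0.29 over all), and between empty vector 2 and Hdac6 vector 1 it was 0.21 (0.19 over all). Between the same-numbered arrays of the groups it was 0.27 for number 1 and 0.31 for number 2 (0.32 and 0.29 over all). The member value was lower for each of the 4 pairs between groups than for the pair of Hdac6 vector arrays.

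The deposited value table, which has 1 row per gene name, gave a different reading for Atat1. Each of the 9 member rows equalled, on all 4 arrays and within 0.01, the mean log2 signal of those probes of the gene that were well above background on that array, plus a constant of the array. The Atat1 row averaged 4 probes on 3 arrays and 3 probes on Hdac6 vector 2, where the dimmest probe dropped out. Its values were -1.57 and -1.42 on the empty vector arrays, against -1.42 and -0.65 on those of the Hdac6 vector. Its log2 difference was 0.46 (95% interval -0.33 to 1.25, limma adjusted p = 0.842), where the mean of all 4 probes gave -0.11. For the other 8 genes the row averaged the same number of probes on every array, and the log2 differences ran from -0.23 for Cttn to 0.02 for Vcp.

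Prdx2, chosen after its values were seen, showed the same feature at a larger size. It encodes another cytosolic peroxiredoxin and reported HDAC6 substrate. Of 166 rows of the value table for the members and the pathway genes described next, it was the 1 row past an adjusted p of 0.05, which 0.0836% of all 37060 rows passed (31 rows). Its values were 1.49 and 1.48 for the empty vector against 4.96 and 5.21 for the Hdac6 vector, which differ by 3.60 on the log2 scale (95% interval 3.14 to 4.06, limma adjusted p = 0.00362). It averaged 3 probes per empty vector array but 2 per Hdac6 vector array. The mean of all 3 probes gave 0.03.

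The 3 Prdx2 probes did not differ by that much. The brightest (chr8:87498153-87498212, plus strand) stood at 5.59 and 5.47 against 5.57 and 6.03, with overlap. The second (chr8:87494387-87494446, plus strand) stood at 3.50 and 3.51 against 3.82 and 4.19, higher on both Hdac6 vector arrays by 0.50 (95% interval -0.05 to 1.04, limma adjusted p = 1.00). The dim probe, which lies on the opposite strand (chr8:87500182-87500241), stood at -5.43 and -5.33 with the empty vector, and on both Hdac6 vector arrays it failed the flag for signal above background. Its measured means there and with the empty vector were -5.81 and -5.38, and as a bound on the means it was at least 1.14-fold lower (limma adjusted p = 1.00). That bound sets the empty vector mean against the Hdac6 vector mean with each dim array raised to the lowest signal among its probes well above background. It leaves out the spread between arrays, and the 95% interval of the log2 difference, -1.21 to 0.36, included 0. On Hdac6 vector 2 that lowest signal was -5.328, above both empty vector levels of the probe, so the bound rests on Hdac6 vector 1. Of the 166 rows, 16 had unequal numbers of such probes across arrays, and in 6 of these the row's difference was over 1 away from that of the mean of all probes.

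**Figure D3:**
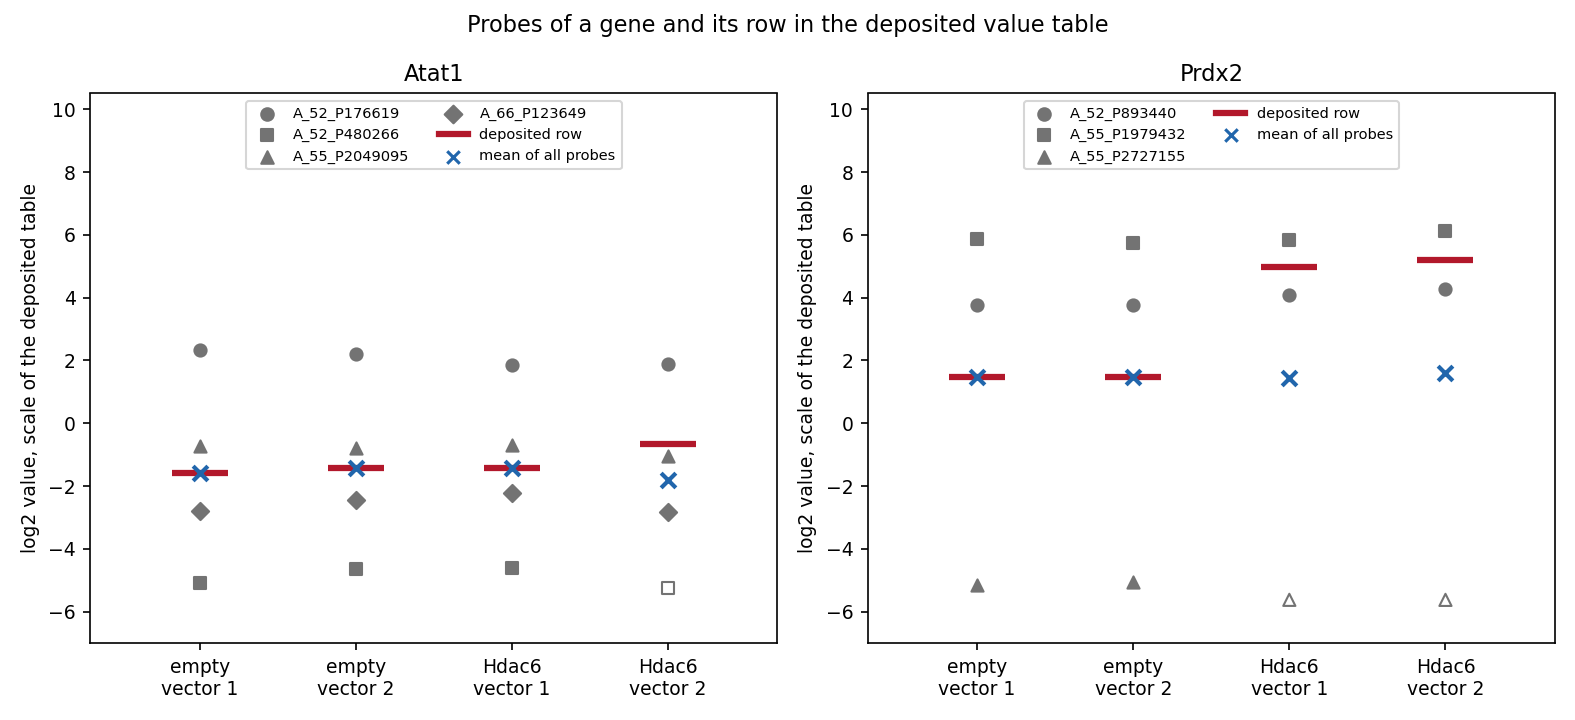
Probes of Atat1 (left) and Prdx2 (right) on each array (x axis), on the log2 scale of the deposited table (y axis). Grey symbols are probes, open where not well above background, red bars the deposited row and blue crosses the mean of all probes: the row leaves the crosses where a dim probe is open.

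Genes that work with the members were set beside them, as 9 lists of 157 genes, 155 of them tested by their brightest probe. In every list 0 genes changed by limma at an adjusted p of 0.05, and 0 had an unadjusted p under 0.05. Together 59 genes were higher and 96 lower, with a median log2 difference of -0.06, where over all genes the median was 0.004 and 50.7% were higher. In 30 of the 155 the groups did not overlap, against 25% of all tested probes. The split depended on single arrays and on scaling. Without Hdac6 vector 1, 93 genes were higher, and without Hdac6 vector 2, 41 were, where 61.1% and 40.4% of all genes were. Without empty vector 1, 75 were higher, and without empty vector 2, 52 of the 156 then tested. The shares of all genes were then 51.0% and 48.6%. Under median scaling 30 of the 155 were higher, where 36.4% of all genes were. The order of the lists also rested on single arrays: without Hdac6 vector 2 their medians ran from -0.28 for the formins to 0.03 for the Keap1 and Nrf2 list. The median over all genes was then -0.08.

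Around the tubulin enzymes, 6 of 15 α-tubulins and tubulin modifiers were higher and 9 lower (median -0.06). Stmn1, a microtubule destabiliser, had the highest difference, 0.16, and Tuba8, a tissue-restricted α-tubulin, the lowest, -0.33. Among formins and endosome partners, 4 of 14 were higher (median -0.11). There the extremes were the formins Diaph2 at 0.35 and Diaph1 at -0.27. Of genes whose products regulate HDAC6 activity, 9 of 18 were higher (median 0.01), with the scaffold protein gene Nedd9 at 0.56 and Egfr, a receptor tyrosine kinase, at -0.45. The Nedd9 value was set by empty vector 1: its row of the value table stood at -1.96 and -0.81 against -0.87 and -0.95. Egfr stood at 5.22 and 5.08 with the empty vector and at 4.51 and 4.89 with the Hdac6 vector, without overlap, and did not pass the test (0.733-fold, 95% interval 0.498 to 1.08).

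Around the substrates, 6 of 20 cortactin and Arp2/3 genes were higher (median -0.11). Cdc42, a GTPase that activates N-WASP, stood at 0.23 and Wipf1, which binds WASP proteins, at -0.57. The Wipf1 probe stood at -2.56 and -3.69 against -3.59 and -3.80, so that value was set by empty vector 1. Of HSP90 cochaperones and heat shock genes, 7 of 15 were higher (median -0.003), from the small heat shock protein gene Hspb1 at -0.38 to the mitochondrial cochaperonin gene Hspe1 at 0.26. The Keap1 and Nrf2 list, which holds other peroxide defence genes, had 6 of 16 higher and a median of -0.20, the lowest of the 9 lists over all 4 arrays. Without Hdac6 vector 2 it had 9 of 16 higher and the highest median, 0.03. Its extremes were Prdx3, the mitochondrial peroxiredoxin, at 0.31 and Gclc, of glutathione synthesis, at -0.55. Gclc stood at 0.31 and 0.61 against 0.49 and -0.67, so that value was set by Hdac6 vector 2. Of other reported deacetylation substrates, 7 of 15 were higher (median -0.04), from the non-muscle myosin gene Myh9 at -0.26 to the focal adhesion adaptor gene Tgfb1i1 at 0.40.

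Around the ubiquitin partners, 7 of 19 VCP cofactors and ubiquitin genes were higher (median -0.04). Derl2, of endoplasmic reticulum degradation, stood at 0.15 and Ubxn2a, a UBX domain cofactor, at -0.30. Of aggresome transport and autophagy genes, 7 of 23 were higher (median -0.06). Ubqln4, a ubiquilin, stood at 0.41 and Park2, the ubiquitin ligase parkin, at -0.54. Park2 stood at 0.95 and 0.66 against -0.33 and 0.86, with Hdac6 vector 1 low and the other arrays alike.

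**Figure D4:**
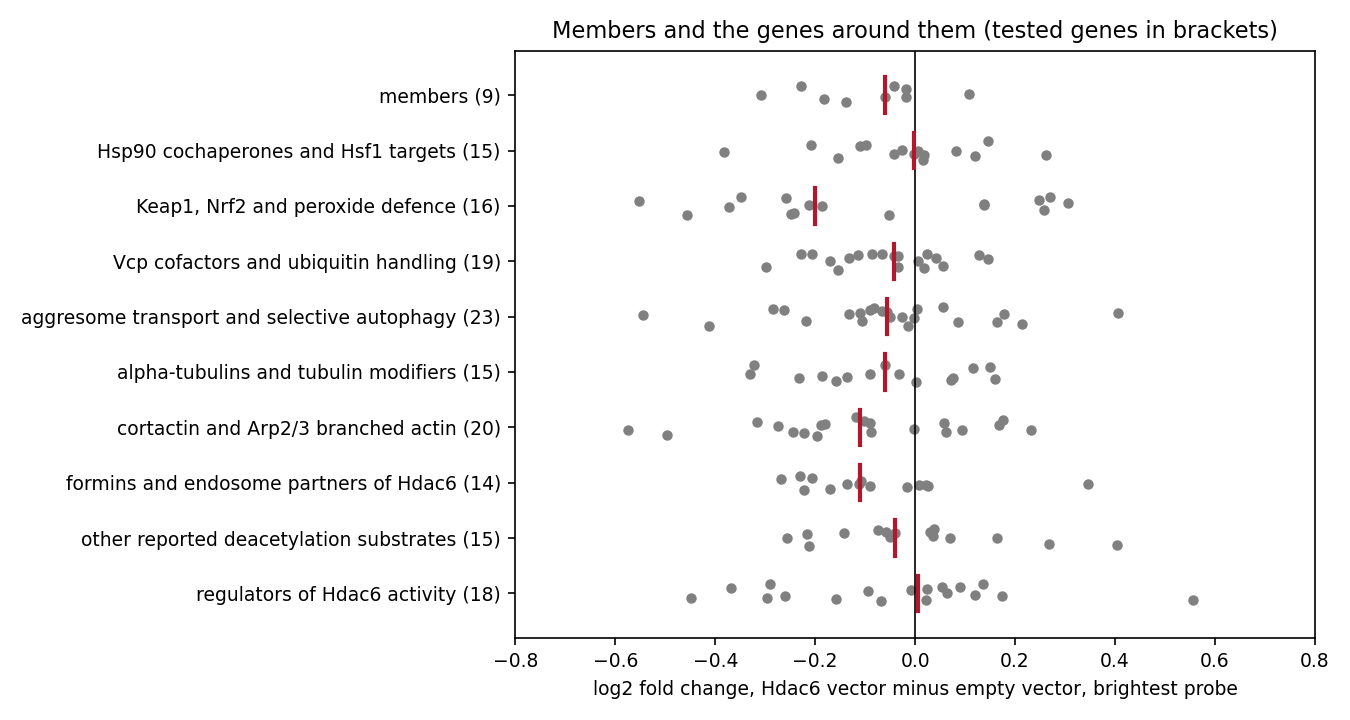
Log2 difference of each tested gene by its brightest probe, Hdac6 vector minus empty vector (x axis), for the 9 member genes and the 9 pathway lists (y axis). Points are genes and bars list medians, which run from -0.20 for the Keap1 and Nrf2 list to 0.01 for the regulators; without Hdac6 vector 2 these 2 medians are 0.03 and -0.25.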

How the data were processed

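Total RNA of 4 samples was labelled with Cy3 and hybridised to 1 array each, all on 1 slide and scanned on 1 day. Per the file headers, the authors deposited spot intensity values from Feature Extraction 11.5.1.1 (protocol GE1_1105_Oct12), background-subtracted and not scaled between arrays, with flags for signal above background, saturation and outliers. The deposited value table holds log2 values per gene name. The sources used here do not say how. Set against the scanner values over 25183 rows with 1 probe, 99.8% to 99.9% of values lay within 0.01 of log2 intensity plus a constant of the array, which fixes scale and direction. Its column medians were -3.78, -3.67, -3.71 and -3.68. Positions are mm9, from the files, 1-based. Sequences are those of the array design in the files. Gene names were updated through the RefSeq table, and 21 of 27 member probes are named on RefSeq transcripts, all with the member's symbol.

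Spots of a probe were averaged as log2 processed intensity (300 repeated probes), control spots were left out, and values were set relative to the 75th percentile of their array. Tested were 35206 probes, well above background on both arrays of at least 1 group. Another 9 were left out for outlier spots. The groups were compared with limma 3.58.1 in R 4.3.3 (lmFit, eBayes with trend, 2 residual and 7.07 prior degrees of freedom), in two-sided tests, with p-values adjusted by Benjamini-Hochberg over the tested probes. The functions were tested on simulated data. The members, lists and tests were chosen with earlier results of these data known. Named are all member probes, cell type markers, the extremes of each list and the 3 genes nearest to Hdac6. Any other gene is said to be chosen after its values were seen. Alternatives were normexp with an offset of 50, quantile and median scaling, other filters on dim probes, no trend and a replicate block. Others were the mean over all tested probes of a gene, the value table and leaving out each array. Some items are not reported here. The number of arrays limits the precision.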

Additional observations from a re-analysis of the deposited data

Results flagged for a closer look

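In the deposited value table, which the comparisons of probes do not use, the Prdx2 row was higher with the Hdac6 vector by 3.60 on the log2 scale, above both empty vector arrays. The Prdx2 probes detected on all arrays differed by 0.50 and 0.27 on that scale. The dim probe, not well above background on either Hdac6 array, was at least 1.14-fold lower there. None passed the test (limma adjusted p = 1.00 each). The row averaged 3 probes on the empty vector arrays and 2 on the Hdac6 vector arrays. Of other rows over 1 away from the mean of all probes, 4 are given, chosen after their values were seen: the row and the mean of all probes gave 1.41 and -0.38 for Ttl, 1.27 and 0.11 for Gabarap, -1.35 and -0.16 for Map4, and -1.06 and 0.18 for Nbr1. Rows with equal numbers of probes well above background on all arrays ran from -0.64 to 0.53. The 0.53 was that of Tppp, whose 1 probe was not well above background on any array. The next highest was Nedd9 at 0.47.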

How the results depend on the processing

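No member probe changed under any alternative run, and none had an unadjusted p under 0.05 by limma. Of 294 alternative values of member probes, 251 kept their sign and 43 changed it, none of them past the test on either side. They include the value table's row of each gene, set against its brightest probe. With other filters on dim probes, no trend or the replicate block, the difference equals the main one by construction. Its sign could not change there, so the count of kept signs does not measure stability. The count of changed probes over the whole array (4) was 29 with normexp, 2 with quantile normalization, 0 with median scaling (727 with an unadjusted p under 0.05), 2 without a trend in the spread, 31 in the value table and 0 to 334 when 1 array was left out. Median scaling left 7 of 26 member probes higher, and the value table called 1 pathway gene, Prdx2.

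The replicate block gave 22 changed probes and 0 member probes. The deviations of same-numbered samples correlated at -0.36 and those of crossed pairs at 0.36, so the numbers were not taken to pair the samples. The crossed block, chosen after seeing the data, gave 15 and 0, with 1888 probes at an unadjusted p under 0.05 against 645.

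Leaving out 1 array moved these log2 differences over 0: -0.45 to 0.17 for Hdac6, -0.20 to 0.25 for Atat1 A_52_P480266, -0.10 to 0.061 for Atat1 A_55_P2049095, -0.037 to 0.39 for Atat1 A_66_P123649, -0.15 to 0.44 for Cttn A_66_P126695, -0.11 to 0.22 for Hsp90aa1 A_55_P2740832, -0.18 to 0.10 for Hsp90aa1 A_55_P2796341, -0.64 to 0.44 for Plaa A_55_P2632482, -0.15 to 0.16 for Plaa A_55_P2632492, -0.53 to 0.16 for Plaa A_66_P118934, -0.032 to 0.14 for Prdx1 A_51_P353183, -0.20 to 0.16 for Prdx1 A_55_P2904683, -0.26 to 0.59 for Prdx1 A_66_P113839, -0.15 to 0.11 for Sirt2 A_52_P547447, -0.21 to 0.27 for Sirt2 A_52_P656024, -0.38 to 0.26 for Sqstm1 A_51_P119077, -0.14 to 0.40 for Sqstm1 A_55_P2069714 and -0.073 to 0.29 for Vcp A_51_P109766. The lone array of a group was then assumed to vary like the other group.

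Other alternatives changed these signs. With normexp, Hsp90aa1 A_55_P2796341 was at 0.0022, Vcp A_51_P109766 at -0.019, Plaa A_55_P2632482 at 0.11 and Prdx1 A_66_P137616 at 0.0018. With quantile normalization, Atat1 A_52_P480266 was at -0.10 and Sirt2 A_52_P547447 at 0.015. With median scaling, Atat1 A_52_P480266 was at -0.066, Sirt2 A_52_P656024 at -0.063, Hsp90aa1 A_55_P2740832 at -0.034, Plaa A_55_P2632492 at -0.082 and Prdx1 A_51_P353183 at -0.038. The widest of these moves was that of Atat1 in the value table, at 0.46 against -0.31 for its brightest probe. The mean of all 4 Atat1 probes gave -0.11, and the row averaged fewer probes on 1 array. Median scaling lowered the log2 difference of every probe by the same amount, so its sign changes follow from the scaling. The causes of the other changes were not tested.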
